A study of Mus musculus with 4 samples.

Results

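Zinc finger genes that stand apart from the large zinc finger clusters of the mouse genome were followed in maps of histone H3 trimethylated at lysine 9 (H3K9me3), a mark of silent chromatin. The genes were the autosomal protein-coding genes named Zfp, Zscan or Zkscan with a number (Rsl genes were searched for as well) that had fewer than 2 other genes of these names starting within 200 kb of their own start, without the long neuronal genes Zfp804a and Zfp804b. This left 199 of the 20558 autosomal protein-coding genes, 189 with a Zfp name, 6 with a Zscan name and 4 with a Zkscan name. Of these, 143 had no other such start within 200 kb and 56 had 1. Neighbouring zinc finger genes with names of other forms were not counted, so an isolated gene may still have relatives nearby. A further 214 genes of these names had 2 or more such neighbours and are called clustered here.

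The mark was mapped by chromatin immunoprecipitation and sequencing in CD8+ T cells of C57BL/6 background, grown in vitro for 3 days with IL-2 and antibodies to CD3 and CD28. The compared groups were wild-type (WT) cells and cells knocked out for Suv39h1 (KO), which encodes an H3K9 methyltransferase, with 1 H3K9me3 library each, made with the same antibody batch. The labels state neither the number and age of the mice nor the kind of knockout allele, and island lists without expression do not check the cell type or the loss of Suv39h1. The WT list held 12371 enriched stretches (islands) with 5547695 reads and the KO list 25424 with 10020253 reads. With 1 library per genotype there was no test and no replicate error: values are set side by side, and a gene without an island may still carry the mark below the level of calling.

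Many zinc finger proteins of the KRAB class bind DNA through arrays of C2H2 fingers and recruit TRIM28, which in turn brings the methyltransferase SETDB1 and heterochromatin protein 1 to silence transposable elements. Zinc finger genes are themselves known carriers of H3K9me3 in mammalian cells. In human cells the mark is known to lie over their 3′ exons, which encode the finger arrays, and the KRAB protein ZNF274 is one factor that recruits the writers there. Other genes of these names encode regulators without a KRAB box, with roles in development, RNA binding or blood cells.

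Promoters of 5 of these genes, taken from RefSeq (GRCm38.p6) with 250 bases before and 50 after the transcript start, are shown first because the islands described below either spared the start of the gene or lay across it. The promoters of Zfp157 (chr5:138441226-138441525, plus strand) and Zfp68 (chr5:138619694-138619993, minus strand), neighbours within 200 kb of each other, lay outside islands in both lists while the rest of each gene was largely inside them. The promoter of Zfp770 (chr2:114201383-114201682, minus strand) started transcription inside a WT island, and that of Zfp616 (chr11:74060647-74060946, plus strand) inside a KO island. The promoter of Zfp936 (chr7:43177340-43177639, plus strand) lay in islands of both lists, and its start was 63424 bp downstream of the annotated gene boundary. Capitals mark CpG pairs, the sites of DNA methylation.
Zfp157: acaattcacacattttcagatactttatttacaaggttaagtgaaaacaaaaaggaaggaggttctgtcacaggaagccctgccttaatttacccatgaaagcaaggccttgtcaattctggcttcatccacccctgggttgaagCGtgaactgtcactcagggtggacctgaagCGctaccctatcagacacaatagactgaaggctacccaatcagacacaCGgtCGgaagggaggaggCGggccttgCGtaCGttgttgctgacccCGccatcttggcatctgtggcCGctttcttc
Zfp68: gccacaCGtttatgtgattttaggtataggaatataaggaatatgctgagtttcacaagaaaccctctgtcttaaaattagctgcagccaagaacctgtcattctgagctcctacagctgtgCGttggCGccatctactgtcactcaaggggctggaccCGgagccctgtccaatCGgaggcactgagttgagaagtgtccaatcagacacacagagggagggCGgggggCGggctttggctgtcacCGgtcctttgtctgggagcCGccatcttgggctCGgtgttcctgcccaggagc
Zfp770: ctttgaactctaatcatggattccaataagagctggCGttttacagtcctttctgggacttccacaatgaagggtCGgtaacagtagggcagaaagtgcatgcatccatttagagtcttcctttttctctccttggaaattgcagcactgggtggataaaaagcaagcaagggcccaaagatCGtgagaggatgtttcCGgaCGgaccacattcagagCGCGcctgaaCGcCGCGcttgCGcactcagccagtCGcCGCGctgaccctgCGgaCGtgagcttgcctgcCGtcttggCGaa
Zfp616: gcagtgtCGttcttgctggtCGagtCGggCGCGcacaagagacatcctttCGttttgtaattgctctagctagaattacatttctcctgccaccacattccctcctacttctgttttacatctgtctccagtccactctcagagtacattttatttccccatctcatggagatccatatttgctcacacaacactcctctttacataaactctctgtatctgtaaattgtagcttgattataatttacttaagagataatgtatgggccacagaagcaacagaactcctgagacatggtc
Zfp936: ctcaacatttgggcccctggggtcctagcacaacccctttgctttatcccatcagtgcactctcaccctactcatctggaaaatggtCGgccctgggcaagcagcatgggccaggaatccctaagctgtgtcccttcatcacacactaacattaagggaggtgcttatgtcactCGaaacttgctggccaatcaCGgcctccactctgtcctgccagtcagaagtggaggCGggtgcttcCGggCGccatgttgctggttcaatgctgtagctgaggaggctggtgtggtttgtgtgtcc

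The motif searched in promoters was CG, which reads the same on both strands. These promoters held 9 CpG in Zfp157, 10 in Zfp68, 18 in Zfp770, 6 in Zfp616 and 6 in Zfp936. Promoters were found for 158 of the 199 genes, with a median of 16.5 CpG, and 16457 promoters of autosomal protein-coding genes had a median of 14. At least 1 CpG stood in all 158 of them and in 95% of all promoters, and 10 or more stood in 67.7% and 58.6%. The 42 genes with an island in either list had a median of 11 CpG (quartiles 6.25 and 18), and the 116 without one had 17.5 (quartiles 9 and 25). The same order held over all genes, where the median was 7 among 3451 promoters of genes with an island. Among the isolated genes the classes differed. The median was 9 CpG for genes in both lists (22 promoters), 18 in WT alone (15 promoters) and 13 in KO alone (5 promoters). Genes in WT alone were thus not lower than the genes without an island.

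The first question was how many isolated zinc finger genes lay under H3K9me3 in each genotype. A gene counted when at least 1 bp of its region, the gene with 2 kb on each side, was inside an island. An island lay over 47 of the 199 genes in WT, 23.6% (95% exact interval 17.9 to 30.1, counting of genes only), where 14.8% of all autosomal protein-coding genes had one. In KO it was 34 genes, 17.1% (12.1 to 23.0), beside 14.5% of all genes. The KO list holds more islands, and over all genes too it touched slightly fewer genes, 2991 against 3043 in WT. Both lists covered 28 genes (14.1%, against 8.03% of all genes). WT islands alone covered 19 genes (9.55%, against 6.77%), and KO islands alone covered 6 (3.02%, against 6.52%). The remaining 146 genes had no island in either list. The classes of a single list also differed with region length. In regions of 10 to 30 kb, 11 of 106 isolated genes lay in WT alone and 4 in KO alone. Of all 7404 genes of that length, 351 and 216 did. The lower share of isolated genes in KO alone thus did not hold at that length. Over all genes, KO alone was more frequent under 10 kb (512 of 5142) and at 100 kb or more (288 of 2428).

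The lists shared many of these genes. Of the isolated genes with a WT island, 59.6% also had a KO island, and of those with a KO island 82.4% had a WT island. Over all autosomal protein-coding genes the shares were 54.3% and 55.2%. Clustered zinc finger genes gave 70.4% and 84.7%, and more of them had islands, 71 of 214 in WT (33.2%) and 59 in KO (27.6%). In regions of 10 to 30 kb the 2 sets were alike, with 28.3% of isolated and 29.5% of clustered genes in WT. In KO these shares were 21.7% and 20.5%. In regions of 30 to 100 kb they differed, with 18.5% and 47.9% in WT and 13.0% and 52.1% in KO. On either side of the limit that separates isolated from clustered genes the shares were close. Of the 56 genes with 1 neighbour, 14 carried a WT island and 12 a KO island. Of the 37 genes with 2 neighbours, 11 and 8 had one.

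**Figure D1:**
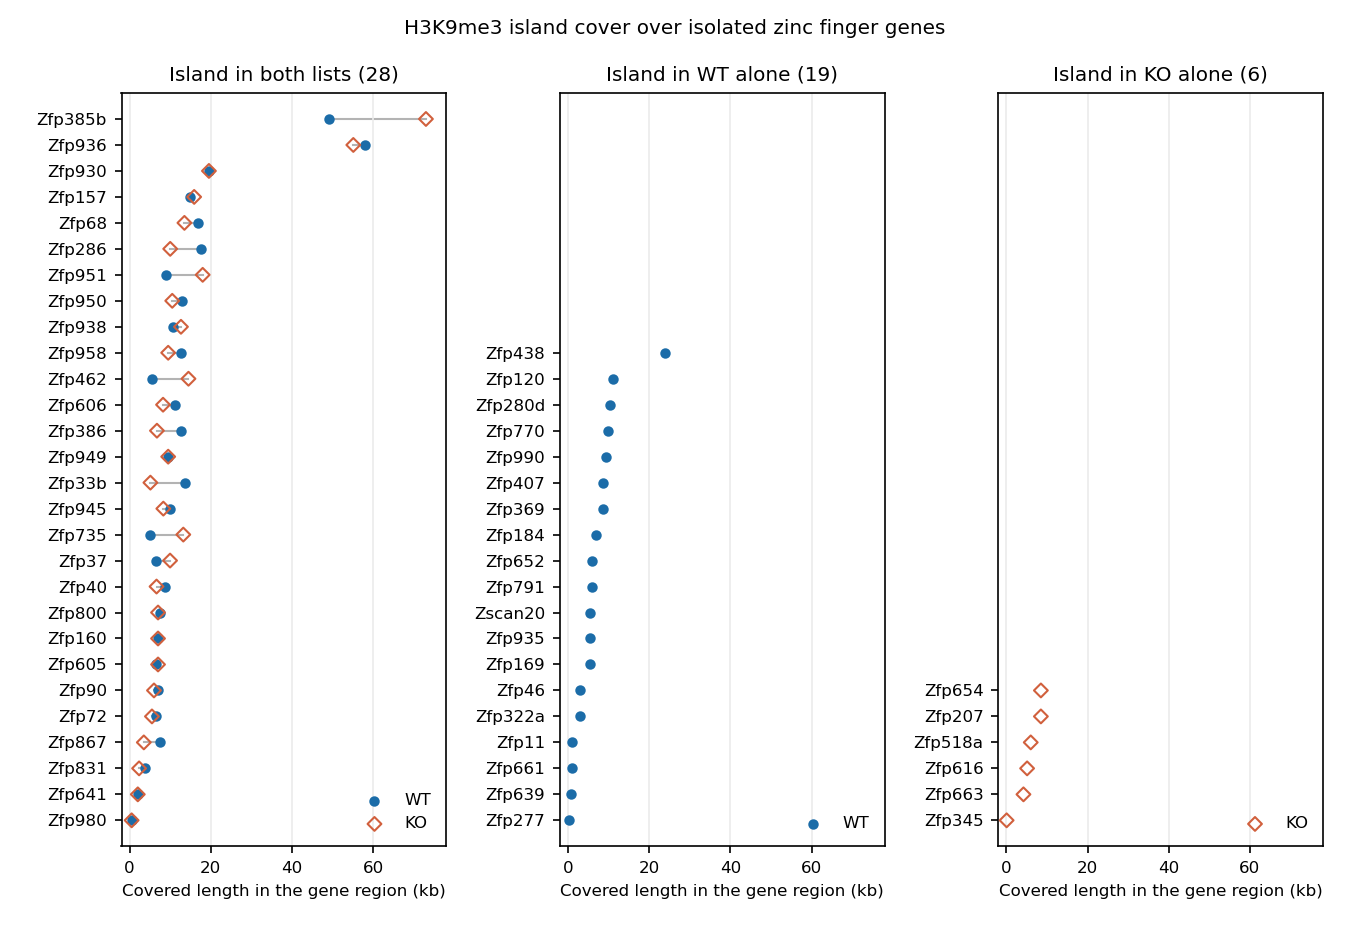
Covered length in kb within each gene region for the 53 isolated zinc finger genes with an island, in panels for islands in both lists, in WT alone and in KO alone. Filled circles are WT and open diamonds KO, 1 library each; Zfp385b and Zfp936 stand apart with 49 to 73 kb, and no gene with an island in KO alone passes 8.50 kb.

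Covered length went the same way. Islands covered 478 kb of the summed regions in WT (5.40% of 8849 kb) and 393 kb in KO (4.44%), a KO to WT ratio of 0.822. Over all autosomal protein-coding genes the ratio was 1.49, with 4.50% of region length covered in WT and 6.72% in KO. That excess in KO lay in regions under 10 kb (5.33% and 7.84%) and of 100 kb or more (5.27% and 9.48%). In regions of 10 to 30 kb all genes had 3.00% in WT and 2.34% in KO, and isolated genes 11.7% and 9.10%. In regions of 30 to 100 kb all genes had 3.52% and 2.94%, and isolated genes 5.34% and 4.19%. At these lengths WT cover was thus the longer in both sets. In regions of 100 kb or more the isolated genes had 2.44% in WT and 2.39% in KO, below all genes in both lists. Zfp385b alone held 49 of 98.7 kb in WT and 73 of 96.8 kb in KO at that length. Clustered zinc finger genes had a ratio of 0.78. Of the isolated genes' cover, 256 kb lay in both lists, which was 53.6% of the WT and 65.2% of the KO length, against 29.6% and 19.8% over all genes. Zfp385b and Zfp936 held the longest cover, and without them the totals were 371 kb in WT and 265 kb in KO, a ratio of 0.714.

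These counts differed with gene length. In regions of 10 to 30 kb, which 106 of the 199 genes have, islands lay over 30 genes in WT (28.3%) and 23 in KO (21.7%), while 7.73% and 5.90% of all autosomal genes of that length had one. In regions of 30 to 100 kb the isolated genes had 18.5% and 13.0%, and all genes 15.7% and 12.5%. In regions of 100 kb or more, 7 of 20 isolated genes carried a WT island and 4 a KO island, 35% and 20%, below the 45.5% and 45.3% of all genes. None of the 19 isolated genes with regions under 10 kb had an island in either list, which allows a share of up to 17.6% by the exact interval. Over all genes of that length 9.49% and 14.7% had one. The isolated genes thus exceeded all genes by the widest margin, in shares, in regions of 10 to 30 kb.

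**Figure D2:**
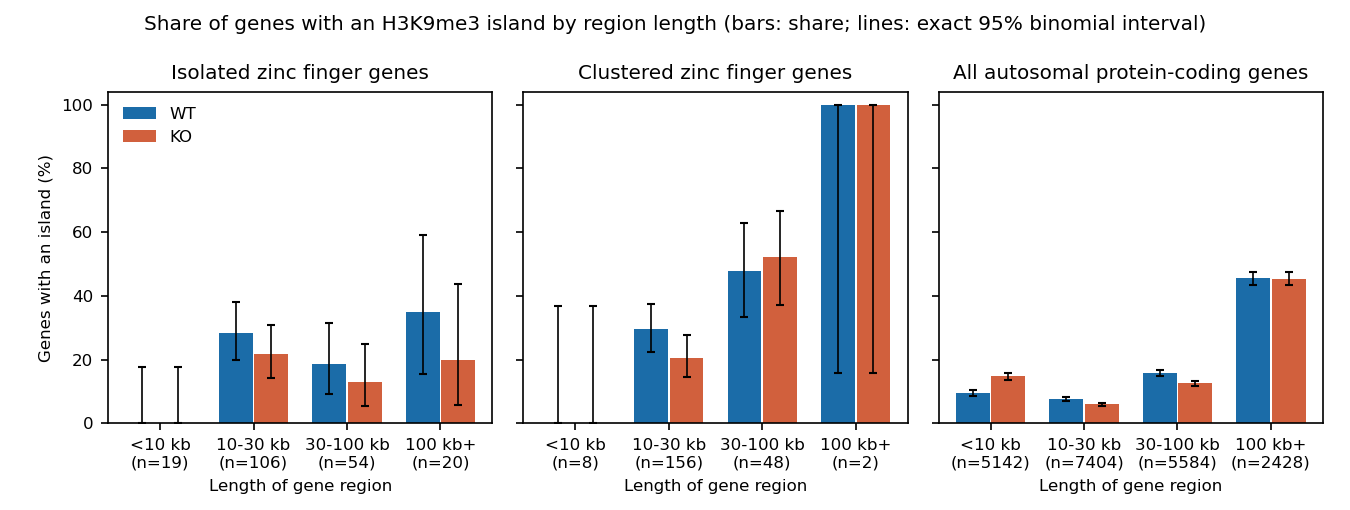
Share of genes with an island in percent, by length of the gene region, for isolated zinc finger genes, clustered zinc finger genes and all autosomal protein-coding genes. Bars are shares in 1 library per genotype and lines are exact 95% binomial intervals; in regions of 10 to 30 kb the isolated genes stand at 28.3% in WT and 21.7% in KO, and all genes at 7.73% and 5.90%.

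Gene density around the members gave a different order than over the genome. Isolated genes with 10 to 24 protein-coding starts within 500 kb had islands most often, 26 of 82 in WT (31.7%) and 22 in KO (26.8%), where all autosomal genes at that density had 11.2% and 9.77%. With under 10 starts the isolated genes had 22.2% and 11.1%, and all genes 25.5% and 24.4%. With 25 or more starts the isolated genes had 13.0% and 9.26%, and all genes 9.17% and 11.3%. For isolated genes with 10 to 24 and under 10 starts, the exact WT intervals overlapped (21.9 to 42.9 and 12.7 to 34.5). The KO intervals did too (17.6 to 37.8 and 4.59 to 21.6). Region length was not held fixed here. From under 10 to 25 or more starts, its median went from 32.4 to 19.2 kb in isolated genes. In all genes it went from 45.4 to 11.2 kb.

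Along the gene, islands lay towards the 3′ end and spared the start. Strand was known for 158 isolated genes. The annotated start was inside a WT island in 2 of them (1.27%) and the annotated end in 18 (11.4%), where 3.56% of the starts and 4.31% of the ends of all genes with known strand lay in WT islands. In KO the start was covered in 2 genes (1.27%) and the end in 11 (6.96%), beside 3.99% and 5.25% of all genes. No isolated gene had both its annotated start and its annotated end in islands of one list. Among isolated genes with regions of 10 to 30 kb, 17 of 90 ends (18.9%) and 2 starts (2.22%) were covered in WT. In KO it was 10 ends (11.1%) and 1 start (1.11%). All genes of that length had 3.49% of ends and 2.25% of starts covered in WT, and 3.05% and 1.99% in KO. Starts were thus covered in WT about as often as over all genes of that length. These shares also reflect how many genes had an island at all. Of genes with a WT island, the end was covered in 48.6% of the isolated genes and 29.6% of all genes, and the start in 5.41% and 24.5%. Of genes with a KO island, the end was covered in 40.7% and 36.9%, and the start in 7.41% and 28.1%. In regions of 10 to 30 kb, the ends were covered in 63% of isolated and 44.3% of all genes with a WT island, and in 50% and 49.1% of those with a KO island. By this measure the isolated genes were near all genes in covered KO ends and below them in covered starts. RefSeq promoters gave the same numbers of covered starts, 2 in WT (Zfp770 and Zfp936) and 2 in KO (Zfp616 and Zfp936), but not the same genes. The annotated starts gave Zfp641 in place of Zfp936 in both lists. With its promoter start, Zfp936 had both its start and its end in islands of each list. Of the 158 promoters, 14 start more than 1 kb from the annotated boundary.

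Cover was read in 10 equal bins of the gene body. In WT, the mean covered share was 1% in the first bin, 6.00% in the fifth and 13.2% in the last. In KO it was 0.64%, 3.56% and 8.73% in the same bins, with its highest value, 11.3%, in the bin before the last. Other autosomal genes with regions of 10 to 30 kb stayed between 2.28% and 3.26% in WT and between 2.03% and 2.88% in KO. These other genes include clustered zinc finger genes of that length. Of the 33 isolated genes with cover in the body in WT, 27 had more of it after the midpoint than before (81.8%), and of 26 in KO it was 22 (84.6%). Among all genes with known strand these shares were 48.6% and 46.9%, and among other genes with regions of 10 to 30 kb they were 55.7% and 58.4%. The clustered genes had the same slant, with 82.5% and 82%.

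**Figure D3:**
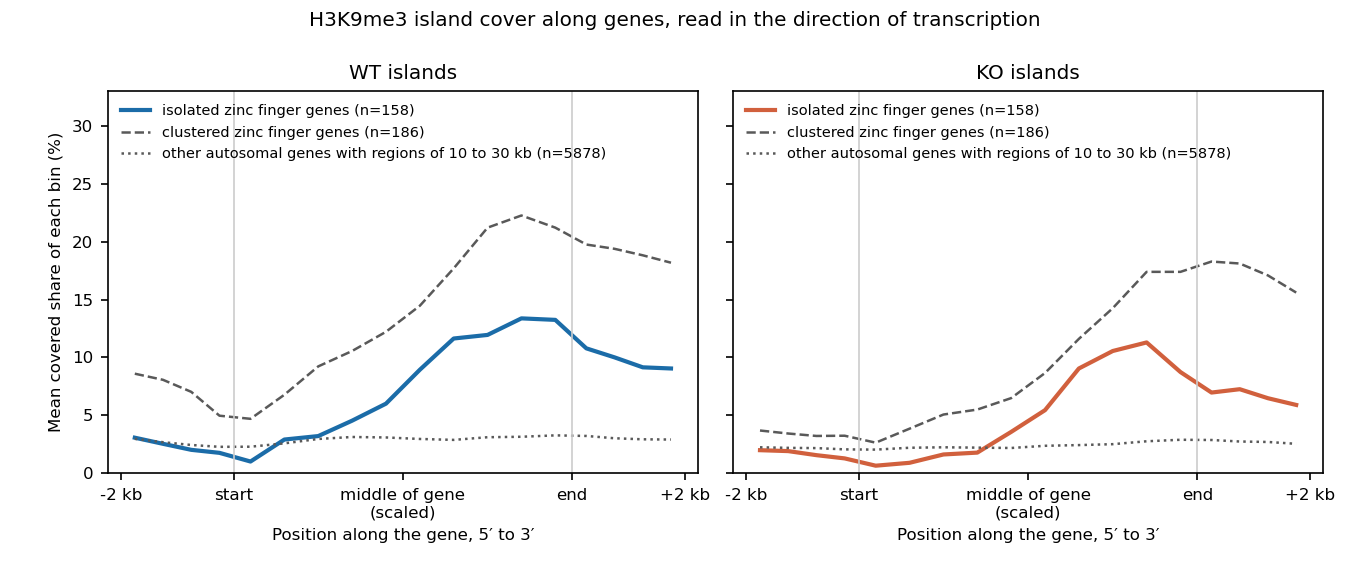
Mean share of each bin covered by islands in percent, from 2 kb upstream of the gene start to 2 kb downstream of its end, with the body scaled to 10 bins, in WT and KO. Coloured lines are the 158 isolated zinc finger genes with known strand, which rise from 1% to 13.4% in WT and from 0.64% to 11.3% in KO. Grey lines are 186 clustered zinc finger genes and 5878 other genes with regions of 10 to 30 kb. The latter set includes clustered zinc finger genes of that length and is nearly flat.

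Single genes show this layout. Zfp157, also known as Roma, spans chr5:138441458-138460900 on the plus strand. A WT island at chr5:138448001-138463500 held 650 reads, or 41.9 per kb, and a KO island at chr5:138447001-138463500 held 617, or 37.4 per kb. Both islands ended at the same base downstream of the gene and began within 1 kb of each other, and 63.6% and 67.8% of the region was covered. Its neighbour Zfp68, a KRAB zinc finger gene, had WT cover of 16.8 kb and KO cover of 13.5 kb, all of the KO island lying inside the WT island. Zfp606 had 11.2 kb of WT and 8.24 kb of KO cover at its 3′ end, and Zfp938 10.7 and 12.7 kb. In these genes both islands took in the gene end, and the start lay outside them.

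Zfp936 (chr7:43114166-43192109) carried a row of 5 islands in each list that matched nearly one for one. The fourth was identical in both, chr7:43160001-43181500, with 1107 reads in WT and 1313 in KO. The second was 5.50 kb long in WT and 2.50 kb in KO, and the fifth 21 and 25.5 kb. Of the length covered in either list, 91.5% was covered in both. Zfp930 on chromosome 8 had 19.5 kb in each list, with both islands starting at the same base, and densities of 58.0 reads per kb in WT and 43.8 in KO. Read counts are not scaled to library depth, so these densities do not measure a difference in the mark.

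Among the 28 genes covered in both lists, 26 had some sequence covered in both. The WT cover was longer in 15, the KO cover in 8, and 5 were equal. The largest excess in WT was at Zfp33b, where 13.6 kb was covered against 5.12 kb in KO. Zfp286 had 17.5 and 10 kb, and Zfp386 had 12.7 and 6.73 kb. At all 3 genes the KO islands within the region lay inside the WT island, as 1 shorter stretch at Zfp33b and Zfp286 and as 2 stretches with a gap at Zfp386. At Zfp950 (13 and 10.5 kb) the KO island likewise began at the same base as the WT island and ended earlier.

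The largest excess in KO was at Zfp385b, with 73 kb in 7 islands against 49 kb in 5 WT islands over a gene of chr2:77410622-77817706. There 29.1% of the covered length was shared, and 3 KO islands and 1 WT island had no partner. Zfp951 had 18 kb in KO and 9 kb in WT, with the WT island inside the KO island. Zfp462, which is needed in embryonic and neural development, had 14.5 kb in KO and 5.56 kb in WT, and these 2 islands lay 9 kb apart without touching. Zfp800 was the other gene whose islands did not meet, with a WT island of 7.50 kb and a KO island of 7 kb at places 53 kb apart. Of these 4 genes, 3 have regions above 100 kb, where an island is met more often over all genes, and only Zfp951 is shorter.

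The islands of WT alone were in part close to the gene end, as in the genes covered in both lists. Zfp120 (chr2:150114407-150136678) carried 11 kb, all of a WT island at chr2:150113501-150124500 across its 3′ end, and the nearest KO island was 16.3 kb from the region. Zfp184, on chromosome 13, had 7 kb across its 3′ end and Zfp990, whose strand was not used, 9.25 kb. Zfp369, also called NRIF2 and related to human ZNF274, had 8.50 kb inside the gene. Zfp770 was unlike these: 82.9% of its region was covered (9.93 kb), including the start, by a WT island of 22.5 kb that extended upstream. Zfp438 had the longest cover in WT alone, 24 kb inside the gene, Zfp280d had 10.4 kb in 2 islands, and Zfp407 8.50 kb. At Zfp11, Zfp639, Zfp661 and Zfp277 the WT island lay in the flank and not in the gene, over 0.29 to 1.09 kb.

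Genes in WT alone had their nearest KO island at a median of 85.3 kb from the region, with a range of 7.2 to 2334 kb, and 10 of the 19 had one within 100 kb. The farthest was at Zfp46. On chromosome 13, 6 of 14 isolated genes carried a WT island and 1 a KO island, Zfp72, where both islands lay across the gene end. Over all 829 autosomal protein-coding genes of that chromosome 18.9% carried a WT island and 13.8% a KO island.

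The 6 genes in KO alone had a median cover of 5.55 kb, close to the 5.83 kb of the genes in WT alone. Zfp207, which encodes the spindle and kinetochore protein BuGZ, had 8.50 kb (chr11:80397501-80406000, 320 reads) inside the gene, and the nearest WT island was 123 kb from the region. Zfp654 had 8.50 kb and Zfp518a 6 kb, both inside the gene. Zfp663 had 4.20 kb across its 3′ end with no WT island within 298 kb. Zfp616 had 5.10 kb across its start, where the nearest WT island was 7.2 kb from the region. At Zfp345 the KO island reached 0.063 kb into the flank, so 5 genes had more than a marginal overlap.

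**Figure D4:**
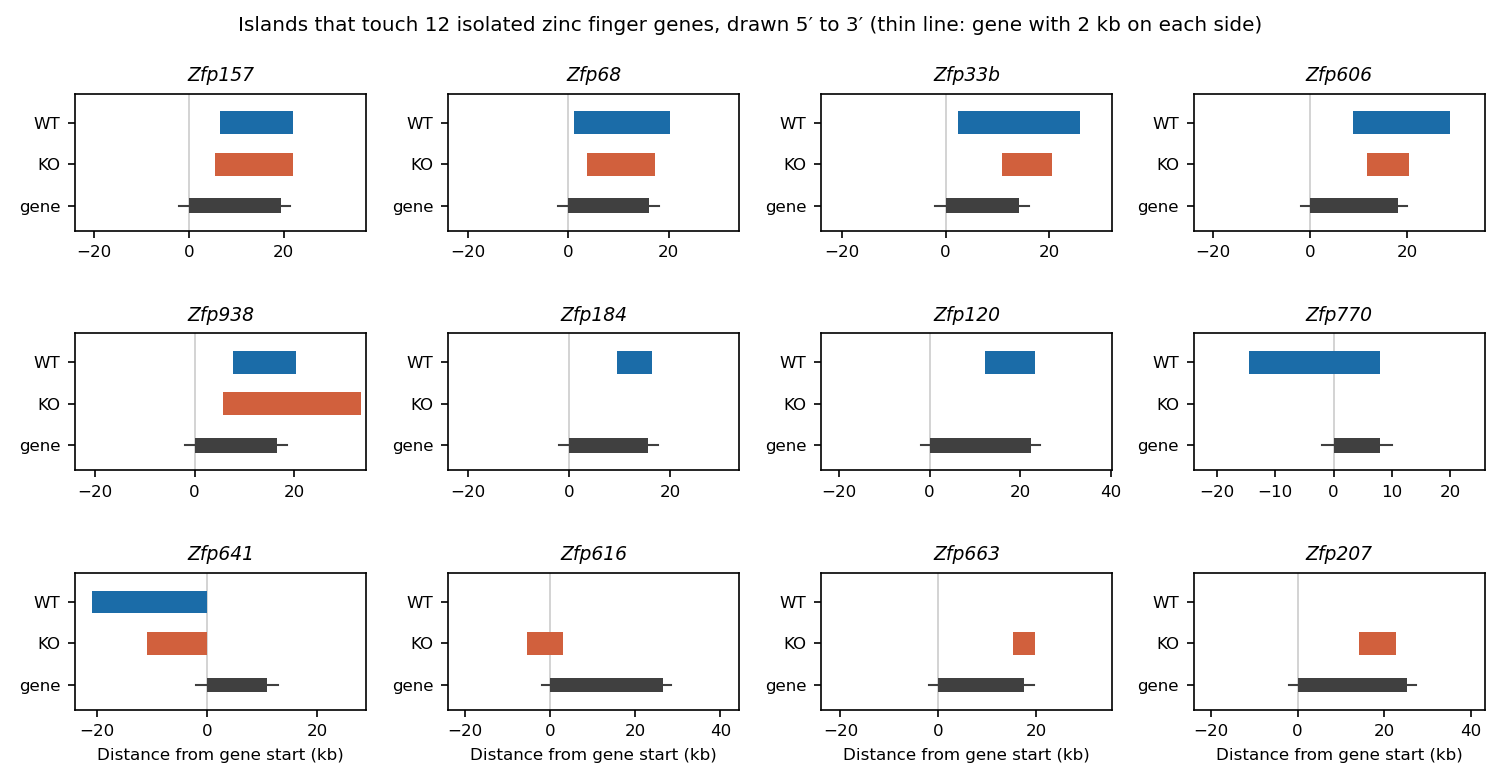
Islands that touch 12 isolated zinc finger genes, in kb from the gene start in the direction of transcription; the dark bar is the gene, the thin line adds 2 kb on each side, blue is WT and red is KO, 1 library each. Islands that do not touch the region are not drawn; in Zfp157, Zfp68, Zfp33b, Zfp606 and Zfp938 both lists cover the 3′ end and leave the start free, and in Zfp641 both islands lie upstream up to the annotated start.

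Zfp641 was the gene whose annotated boundary at the 5′ side was reached in both lists, although its RefSeq promoter start lay outside them. The 2 islands began at the same base, chr15:98296501, and 2.02 kb of each lay in the region, almost all of it upstream of the gene. The WT island went on for 21 kb and the KO island for 11 kb. The smallest cover in both lists was at Zfp980, a single window of 0.500 kb at chr4:145687001-145687500 with 65 reads in WT and 56 in KO. Its densities of 130 and 112 reads per kb were the highest of all islands over isolated genes.

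Islands over these genes were of ordinary length and slightly denser than others. The 57 WT islands had a median length of 10 kb and 45.1 reads per kb, against 10 kb and 40.4 over all autosomal WT islands. The 47 KO islands had medians of 9.50 kb and 42.7 reads per kb, against 9 kb and 40.1. A KO island overlapped 36 of the 57 (63.2%, and 48.0% over all), and a WT island overlapped 35 of the 47 (74.5%, and 24.9% over all). No island touched 2 isolated genes. Only 4 WT islands and 1 KO island touched the body of another protein-coding gene, which was Septin14 beside Zfp11, Dock4 beside Zfp277, Olfr285 beside Zfp641 and Jmjd4 beside Zfp867.

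The region was covered to at least 50% in 10 isolated genes in WT (5.03%, against 2.75% of all genes) and in 5 in KO (2.51%, against 3.41%). The 5 KO genes were Zfp157, Zfp68, Zfp930, Zfp936 and Zfp938, and all were among the 10 of WT. The other 5 were Zfp33b, Zfp386, Zfp606, Zfp770 and Zfp958. Of these, 4 kept shorter cover in KO and Zfp770 had none.

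Isolated genes with roles in blood cells had no islands. The list comprised 13 symbols, of which 10 were isolated genes, and 0 of the 10 had an island in either list. They included Zfp36, whose product tristetraprolin promotes decay of cytokine mRNAs, and Zfp335, which is needed for T cell maturation. Zfp318, which controls IgD expression in B cells, Zfp91, a ubiquitin ligase of NF-kappaB signalling, Zfp281 and Zfp143, a promoter-binding factor, were likewise without one. With 10 genes and shares of 14.8% and 14.5% over all genes, a count of 0 says little about the list.

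Of 8 isolated genes with roles in imprinting, germ cells or the early embryo, 1 was covered in both lists (Zfp462) and 1 in WT alone (Zfp277, by 0.29 kb), beside 8.03% and 6.77% of all genes. No island lay over Zfp57, which protects imprints from demethylation, Zfp42, the pluripotency marker REX1, or Zfp296, Zfp541, Zscan2 and Zfp292. Of 15 developmental or neuronal genes, 2 were covered in both (Zfp385b and Zfp462), 1 in WT alone (Zfp407) and 12 in neither. Over all genes 8.03% were covered in both and 6.77% in WT alone, and with 15 genes these counts say little about the list. The 3 with islands have regions above 100 kb, and of all genes of that length 45.5% had one in WT and 45.3% in KO. The 12 included Zfp536 with a region of 460 kb, Zfp423 with 304 kb and Zfp521 with 290 kb, all 3 regulators of neural or mesenchymal differentiation.

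Of 21 autosomal genes of the machinery that sets, reads or removes H3K9me3 at zinc finger genes, 3 had islands in both lists, 2 in WT alone, 1 in KO alone and 15 in neither. Over all genes these shares were 8.03%, 6.77% and 6.52% in the same order, and with 21 genes these counts do not set the list apart. Those in both included Zfp110, known as NRIF1, a clustered zinc finger gene related like Zfp369 to human ZNF274, covered over 15.6 kb in WT and over 13.1 kb in KO. Atf7ip, the partner that stabilises SETDB1, had 11 and 12 kb, and Morc2a 0.812 kb in each. Zfp369 and Tasor, a HUSH complex gene, had only WT cover, and Kdm4c, which encodes a demethylase, only KO cover. The genes without an island included Trim28, Setdb1 and the heterochromatin protein genes Cbx1, Cbx3 and Cbx5.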

How the data were processed

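Of 4 libraries (H3K9me3 and input for 2 genotypes), the 2 H3K9me3 libraries were used, each as 1 list of islands; the inputs are not analysed here. Per the submitters' processing notes, Bowtie2, SICER 1.1 and the mm10 build were used. For window, gap, false discovery rate and use of the input, values were not given in the sources used. The authors' deposited lists give island start and end in bp and a whole-number count, read as ChIP reads per island, unscaled; whole-library depth is not known here. Coordinates lie on a grid of 500 bp counted from 0 and were converted to count from 1. Regions called in separate lists move with how much was called in each.

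Genes came from RefSeq GRCm38.p6, the assembly that mm10 names, without 365 genes off the placed nuclear chromosome sequences, recognised by table order. Strand came from the RefSeq promoter table and was not used for 41 members. Protein sequences were not used, so the planned split by finger number and KRAB box was not run. Intervals are exact Clopper-Pearson (95%, scipy 1.17.1), cover counting of genes only, and take neighbouring genes as independent. The overlap functions were tested on simulated data. Python 3.11.15, pandas 2.3.3 and numpy 2.4.6 were used.

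Members, lists and comparisons were chosen with earlier results of these data known. Named genes are up to 8 with the longest cover in each of WT alone, KO alone and both, up to 3 with the largest difference each way, and list members with an island plus up to 6 without. Zfp606, Zfp938, Zfp641, Zfp800, Zfp980, Zfp958, Zfp11, Zfp639, Zfp661, Zfp46, Zfp72 and genes beside islands were named after their values were seen.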

Additional observations from a re-analysis of the deposited data

How the results depend on the processing

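No paired analysis was possible because there is a single library for WT and for KO. Of 56 values under other settings, 43 stayed within 1.5 times the reported value, including all with flanks of 0 or 10 kb, islands above the median reads per kb, no islands of the densest 1%, at least 1 kb covered, and regions under 100 kb, the last chosen after the data were seen. With equal numbers of islands, which drops KO islands alone, KO islands lay over 19 genes, with 29 genes now in WT alone and 1 gene in KO alone; over all genes 8.89% then had a KO island, 9.46% lay in WT alone and 3.55% in KO alone. With at least 50% of the region covered, the counts were 10 in WT, 5 in KO, 5 in WT alone and 0 in KO alone. These were 5.03%, 2.51%, 2.51% and 0% of the isolated genes. Over all genes the shares were 2.75%, 3.41%, 1.86% and 2.52% in the same order. With no other matching start within 200 kb (143 genes), 22 genes had a KO island, 15.4% beside 14.5% of all genes. Cover was then 296.7 kb in WT and 257.0 kb in KO. With fewer than 2 such starts within 500 kb (159 genes), the values were 22 genes (13.8%), 297.3 kb and 241.5 kb. WT islands lay over 23.1% and 21.4% of the genes in these settings, beside 14.8% of all genes. Both settings hold fewer genes by construction. More genes had a WT than a KO island in each setting run. Over all genes this order held with no flank (13.2% and 13.0%) and a 10 kb flank (19.8% and 18.6%). It held with at least 1 kb covered (13.9% and 13.8%) and without the densest 1% of islands (14.6% and 14.3%). With equal numbers of islands (14.8% and 8.89%) the order could not change, for isolated genes or for all genes. Only KO islands are dropped there, and the KO list already touched fewer genes. The order over all genes was reversed for islands above the median reads per kb (9.48% and 9.62%) and for at least 50% covered (2.75% and 3.41%). Depth limits the calls: the KO list has more islands and reads, and library depth and input signal are not known here.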
